A study of Mus musculus with 2 samples.

Results

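The urokinase system was followed through 8 genes, taken from the deposited expression table by gene symbol. They encode the plasminogen activators Plau and Plat, the urokinase receptor Plaur, the serpins Serpine2, Serpinb2 and Serpinb6a, the docking protein annexin A2 (Anxa2) and the clearance receptor Lrp1. The table held 51912 genes with Ensembl identifiers, and all 8 were among them. Values are in TPM, a transcript abundance divided by transcript length and scaled to the same total in each library, and pairs of values give the control library first. A gene counted as detected at a mean of at least 1 TPM over both libraries, which 7 of the 8 met. Serpinb2 did not. The study sequenced RNA of 4T1, a mouse mammary carcinoma cell line. The control library came from 4T1 cells that the labels name as controls, and the other from 4T1 cells kept in the lower chamber of a transwell for 3 days with M2 macrophages in the upper chamber. M2 is the name for alternatively activated macrophages, and neither the origin of these macrophages nor whether control cells had an empty insert is stated in the labels. Each group was 1 library, so no value has a replicate error, no test between groups was made, and every difference is between these 2 libraries.

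Urokinase (uPA) and tissue plasminogen activator (tPA) are serine proteases that cut plasminogen into plasmin, a broad protease that dissolves fibrin, degrades matrix glycoproteins and activates other proteases. Urokinase works at the cell surface, held by its lipid-anchored receptor uPAR. Serpins are suicide inhibitors that trap the protease in a covalent complex, and LRP1, a large endocytic receptor, takes such complexes into the cell. Tumours often express this system at their invasive edge, where both carcinoma cells and macrophages can supply its parts.

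The labelled cell type was first compared with marker lists. Of 12 mammary epithelial markers 5 were detected, with Krt8 at 548 TPM without and 630 TPM with macrophages and Krt18 at 439 TPM and 484 TPM. Krt7 had 15.9 TPM and 18.3 TPM, and Cldn3 had 8.14 TPM and 14.1 TPM. Epcam was listed at 0 in both libraries, and Cdh1 had 0.04 TPM and 0.01 TPM. Macrophages express urokinase and its receptor, so their markers bear on every value of the system. Of 20 macrophage markers 2 were detected, Cd68 at 57.7 TPM without and 27.8 TPM with macrophages and Cd14 at 8.87 TPM and 12.4 TPM. The other 18 summed to 0.31 TPM without and 0.54 TPM with macrophages, and the whole list to 66.9 TPM and 40.7 TPM. Of the 20 markers 9 were listed at 0 in both libraries, Adgre1 and Tyrobp among them. The other defining markers were near 0, with Lyz2 at 0 and 0.04 TPM and Csf1r at 0.03 TPM and 0.01 TPM. Fibroblast markers were detected for 2 of 12 genes, with the list summing to 9.29 TPM and 12.98 TPM, and endothelial markers for none of 6, summing to 0.15 TPM and 0.28 TPM. The part of other cells in the results that follow was not tested.

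Urokinase had the largest ratio of the members. In the deposited TPM values Plau was more than 4-fold more abundant in co-culture. It was the 1 member among the 7 detected that passed 2-fold in either direction. Differences are given as log2((co-culture TPM + 1)/(control TPM + 1)), called the log2 ratio, and 2-fold means a log2 ratio of at least 1 or at most -1. Among all 11258 detected genes 4.95% were at least 2-fold higher in co-culture and 2.14% at least 2-fold lower. The detected members had 5 higher and 2 lower values, against 64.5% higher and 35.4% lower among all detected genes. Their median log2 ratio was 0.21 and that of all detected genes 0.17, with 25th and 75th percentiles of -0.14 and 0.48. Plau and Plaur lay above the upper of these percentiles, and the other 5 detected members lay between them. The log2 ratios of 5 of the 7 detected members lay within 0.5 of 0, as did those of 68.0% of all detected genes.

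**Figure D1:**
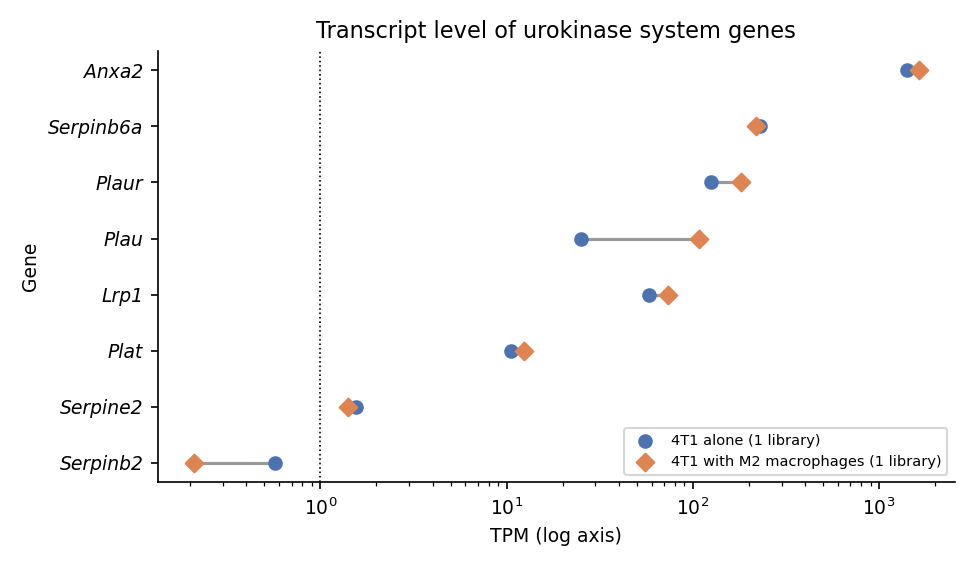
TPM of the 8 genes (horizontal log axis) in the control library (blue circles) and the co-culture library (orange diamonds), 1 library each, ordered by mean level. The widest gap among detected genes is that of Plau, from 24.9 to 108 TPM, and Serpinb2 lies left of the dotted line at 1 TPM in both libraries.

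The members spanned a wide range of levels in 4T1 cells. Anxa2 was the most abundant at 1413 TPM without and 1628 TPM with macrophages, and it made up 75.8% and 73.2% of the members' summed TPM. In the control the order went on with Serpinb6a, Plaur, Lrp1, Plau, Plat, Serpine2 and Serpinb2. In co-culture the order was the same except that Plau stood above Lrp1. How far neighbours in this order differ beyond replicate spread is unknown with 1 library per group.

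The proteases differed in both level and ratio. Plau (ENSMUSG00000021822, chromosome 14, 20836660 to 20843385, plus strand of GRCm38) encodes urokinase and had 24.9 TPM without and 108 TPM with macrophages. The co-culture value was therefore 83.0 TPM higher, and its log2 ratio was 2.07. Among detected genes 67, Plau included, had a log2 ratio at least that high, and 99.4% had a lower one. Ordered by TPM among all genes, Plau stood at place 3918 in the control and at place 1081 in co-culture. Plat (ENSMUSG00000031538, chromosome 8, 22757727 to 22782844, plus strand) encodes tPA, the activator that works mainly on fibrin and in blood vessels and neurons. It had 10.5 TPM without and 12.4 TPM with macrophages, a log2 ratio of 0.21. Its places in the order, 6385 and 6391, were nearly the same. With libraries scaled by a trimmed mean of ratios, the log2 ratio was 1.85 for Plau and 0.01 for Plat. The activators of plasminogen thus differed in ratio between these libraries, and replicate spread is unknown.

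**Figure D2:**
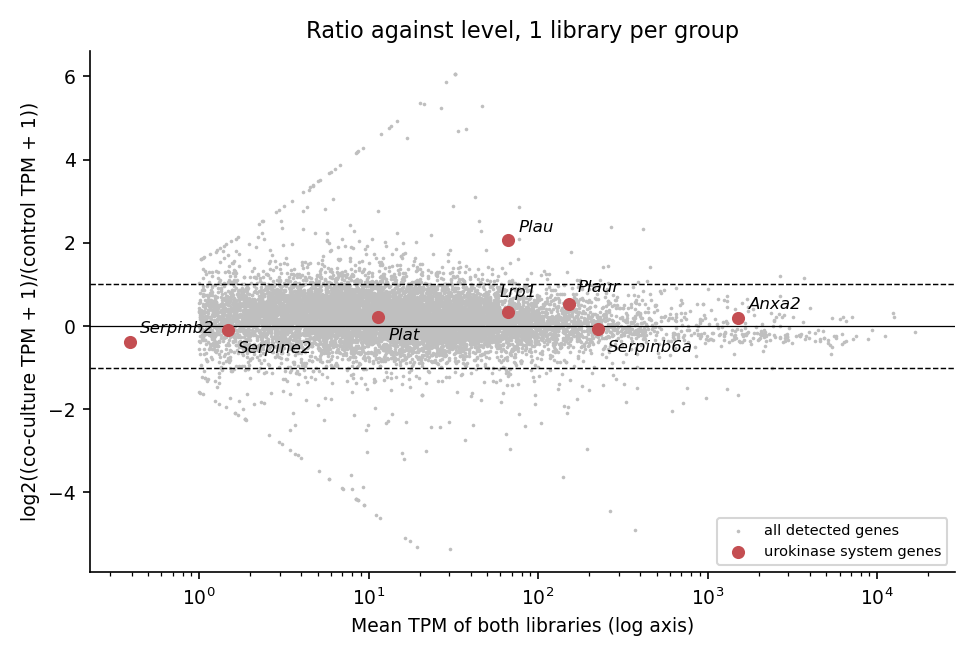
Log2 ratio (vertical) against mean TPM of both libraries (horizontal log axis) for all detected genes (grey) and the 8 urokinase system genes (red), with dashed lines at 2-fold. Plau lies at 2.07, higher than 99.4% of all detected genes, while the other 7 genes lie between the dashed lines.

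The receptor had the next highest ratio. Plaur (ENSMUSG00000046223, chromosome 7, 24462484 to 24475968, plus strand) encodes uPAR and had 125 TPM without and 181 TPM with macrophages. Its log2 ratio was 0.52, below 2-fold, and 77.8% of detected genes had a lower ratio. Receptor transcripts were thus more abundant than urokinase transcripts in both libraries. The start regions of the member genes were searched for 6 short motifs on both strands, in windows of 250 bases before to 50 bases after each transcript start from RefSeq (GRCm38.p6). The table held 8 such windows for 6 members, Plaur, Anxa2, Lrp1, Serpine2, Serpinb2 and Serpinb6a, and Plau and Plat had no entry. The AP-1 motif TGANTCA is the binding element of FOS and JUN dimers. It was found in 4 of the 8 windows, from 3 of the 6 genes, and in 7.81% of all 32851 windows. The stretches of these 3 genes are shown because they share this motif. Each runs 5′ to 3′ on the plus strand, stops before the gene's first annotated base, and has the motif in capitals.
Plaur, chr7:24462233-24462482: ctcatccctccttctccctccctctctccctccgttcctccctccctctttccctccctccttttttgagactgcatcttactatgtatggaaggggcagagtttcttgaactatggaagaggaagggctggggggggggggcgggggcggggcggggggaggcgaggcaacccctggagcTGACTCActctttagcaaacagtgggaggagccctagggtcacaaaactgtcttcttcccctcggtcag
Anxa2, chr9:69453433-69453619: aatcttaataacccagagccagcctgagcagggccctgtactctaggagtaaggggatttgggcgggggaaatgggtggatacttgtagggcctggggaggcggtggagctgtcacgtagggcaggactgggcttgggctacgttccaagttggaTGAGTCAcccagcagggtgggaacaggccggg
Serpinb2, chr1:107511173-107511422: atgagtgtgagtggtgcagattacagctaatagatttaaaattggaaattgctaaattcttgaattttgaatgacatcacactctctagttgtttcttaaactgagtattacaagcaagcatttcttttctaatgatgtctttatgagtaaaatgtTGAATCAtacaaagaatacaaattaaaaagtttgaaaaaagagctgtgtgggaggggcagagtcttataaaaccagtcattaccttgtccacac
The motif begins 69 bases before the RefSeq transcript start in Plaur, 95 bases before it in Anxa2 and 94 bases before it in Serpinb2. In Anxa2 this transcript start lies within the annotated gene, so the stretch shown stops short of it. The second window of Serpinb2 overlaps the first and holds the same match. The 3 genes had log2 ratios of 0.52, 0.20 and -0.38, the last of them that of Serpinb2, which was not detected. The GC box GGGCGG was found in 5 of the 8 windows, from 5 of the 6 genes, and in 35.7% of all windows. The hypoxia element ACGTG was found in Anxa2 and in 19.6% of all windows. The motifs TGACGTCA (the cAMP response element) and TGATGNAAT (ATF4), and the NF-kB motif, were found in none of the 8 windows and in 1.79%, 0.965% and 1.63% of all windows. A match is a stretch of letters and says nothing about binding.

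Annexin A2 binds plasminogen and tPA at the cell surface, as a complex with S100A10. Anxa2 (ENSMUSG00000032231, chromosome 9, 69453620 to 69491795, plus strand) was below 2-fold. Its 1413 TPM and 1628 TPM gave a difference of 215 TPM, the largest of the 8 genes in TPM, but a log2 ratio of 0.20, which became -0.0144 when libraries were scaled by a trimmed mean of ratios (TMM). S100a10 had 912 TPM and 1189 TPM, a log2 ratio of 0.38. The Anxa2 to S100a10 TPM ratio was 1.55 in the control and 1.37 in co-culture. Both partners were thus among the abundant transcripts of either library in a similar proportion.

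The serpins among the members had lower values in co-culture, none by 2-fold. Serpinb6a (ENSMUSG00000060147, chromosome 13, 33917918 to 34002794, minus strand), a mainly intracellular serpin that inhibits trypsin-like proteases, had 230 TPM without and 219 TPM with macrophages, a log2 ratio of -0.07. Serpine2 (ENSMUSG00000026249, chromosome 1, 79794197 to 79861180, minus strand) encodes protease nexin 1, a secreted inhibitor of thrombin, urokinase and tPA. It had 1.56 TPM and 1.40 TPM, a log2 ratio of -0.09. Serpinb2 (ENSMUSG00000062345, chromosome 1, 107511423 to 107535478, plus strand) encodes plasminogen activator inhibitor 2, a product typical of activated monocytes and macrophages. It had 0.57 TPM without and 0.21 TPM with macrophages, below the detection limit, with a log2 ratio of -0.38 that became -1.11 with a pseudocount of 0.1. Serpinb6a therefore supplied nearly all serpin transcripts of the members, and the other two were at 1.56 TPM or less.

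Lrp1 (ENSMUSG00000040249, chromosome 10, 127538161 to 127621148, minus strand) had 58.2 TPM without and 73.9 TPM with macrophages. Its log2 ratio was 0.34, and 64.4% of detected genes had a lower one. Lrpap1, the chaperone that keeps LRP1 free of ligand on its way to the surface, had 22.6 TPM and 21.1 TPM. The Lrp1 to Lrpap1 ratio was 2.58 in the control and 3.51 in co-culture.

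Ratios between members inside a library do not depend on how libraries are scaled, and TPM allows them because it is per length. Plau transcripts went from 0.20 per Plaur transcript in the control to 0.60 in co-culture. The Plau to Plat ratio was 2.37 in the control and 8.74 in co-culture. Lrp1 was 2.33 times Plau in the control and 0.68 times Plau in co-culture, so this pair changed order. The Lrp1 to Plaur ratio moved less, from 0.46 to 0.41. The summed TPM of the 3 serpins was 232 in the control and 220.3 in co-culture, against 35.5 and 120.3 for Plau and Plat together. The serpin to activator ratio was thus 6.55 in the control and 1.83 in co-culture, 3.58 times lower. Without Serpinb6a the ratio was 0.06 and 0.01. These are ratios of transcripts and do not measure active enzyme.

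**Figure D3:**
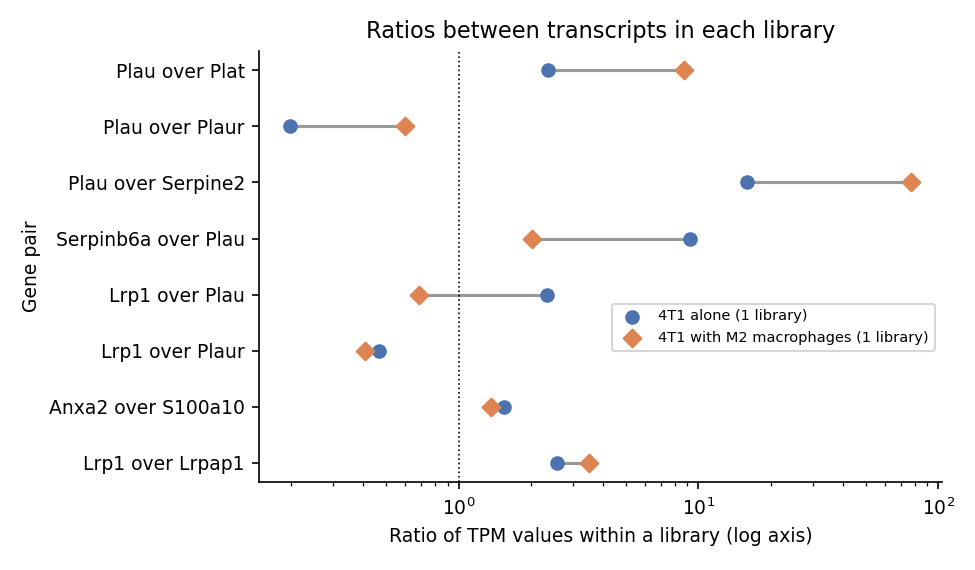
Ratio of the TPM values of gene pairs within the control library (blue circles) and within the co-culture library (orange diamonds) on a horizontal log axis, with a dotted line at equal TPM. Pairs that include Plau are far apart between libraries, such as Plau over Plat at 2.37 and 8.74, while Lrp1 over Plaur is at 0.46 and 0.41.

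The wider pathway was described by 10 lists of genes, each by its detected genes, its counts past 2-fold and its median log2 ratio. Over all detected genes the median was 0.17, and 64.5% were higher, 4.95% at least 2-fold higher and 2.14% at least 2-fold lower. Genes of soluble fibrinolysis control were mostly listed at 0. Of 11 genes, among them plasminogen itself (Plg) and the plasmin inhibitor Serpinf2, 9 were listed at 0 in both libraries and 2 were detected. These were Tfpi (tissue factor pathway inhibitor) at 9.98 TPM without and 12.9 TPM with macrophages, and the tissue factor gene F3 at 11.7 TPM and 11.8 TPM. Their log2 ratios were 0.34 and 0.02, so neither was 2-fold different. The median was 0.18.

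Cell surface receptors for plasminogen were detected for 6 of 6 genes, none 2-fold different, with a median of 0.29. All 6 had higher values, against 64.5% of all detected genes, and the median was 0.07 with TMM scaling. Hmgb1 had the highest log2 ratio at 0.58, and Eno1, an enolase that also binds plasminogen outside the cell, had 1393 TPM without and 1705 TPM with macrophages. Ahnak had a log2 ratio of 0.29.

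Partners of the urokinase receptor had the highest median of the lists, 0.65. The list holds integrins and other membrane proteins that bind uPAR, and 9 of its 13 genes were detected. All 9 were higher in co-culture, against 64.5% of all detected genes, and the list median was 0.45 with TMM scaling. Of the 9, 2 were at least 2-fold higher, against 4.95% of all detected genes. Itgb3 (integrin beta 3) had 13.2 TPM without and 45.9 TPM with macrophages, a log2 ratio of 1.72. Itgav (integrin alpha V), which pairs with it to form the vitronectin receptor, had 24.98 TPM and 59.5 TPM, a log2 ratio of 1.22. Itga6 and Itga3, chains of laminin-binding integrins, had log2 ratios of 0.86 and 0.67. Vtn, which encodes vitronectin, was listed at 0 in both libraries.

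**Figure D4:**
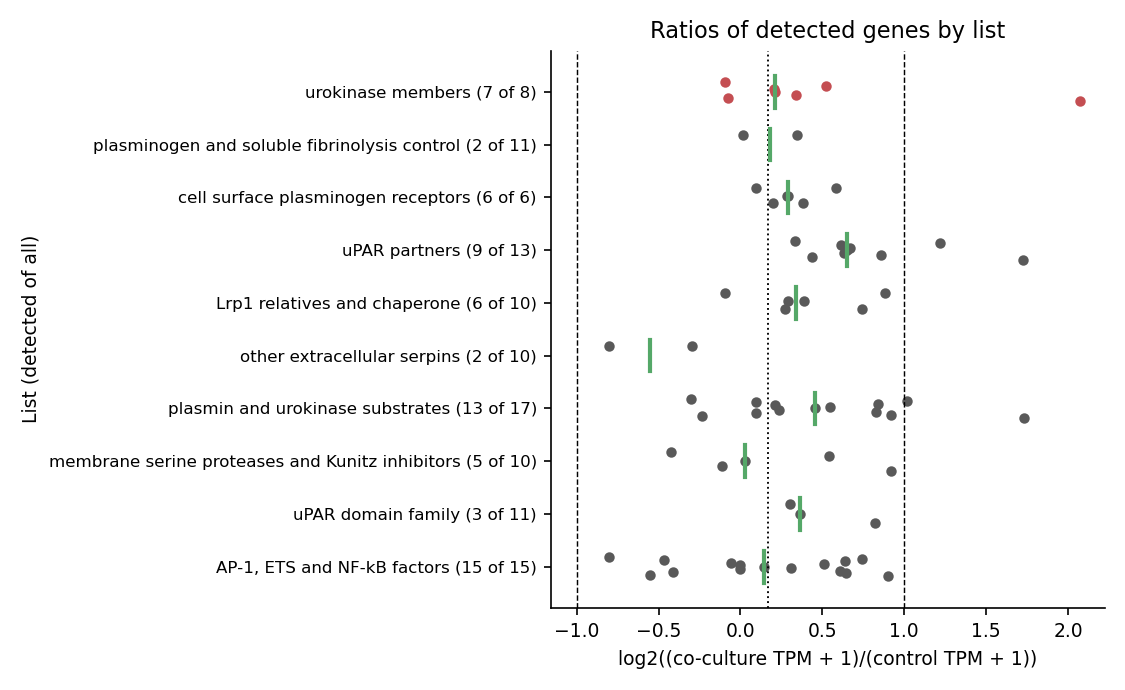
Log2 ratios (horizontal) of detected genes in the urokinase list (red) and in the pathway lists with detected genes (grey), with list medians in green, the median of all detected genes dotted and 2-fold dashed. The uPAR partner list reaches 1.72 and has a median of 0.65, and the urokinase list has a median of 0.21.

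Proteins that plasmin or urokinase cut or activate were detected for 13 of 17 genes, with a median of 0.46. Of the 13, 11 were higher and 2 at least 2-fold higher, against 64.5% and 4.95% of all detected genes. Mmp13 (collagenase 3) had 3.92 TPM without and 15.4 TPM with macrophages, a log2 ratio of 1.73. Mmp14, the membrane-anchored matrix metalloproteinase, had 33.7 TPM and 69.2 TPM, a log2 ratio of 1.02 that lay below 2-fold with either re-centring of the libraries. Mmp10 and Mmp3, the stromelysins, had log2 ratios of 0.92 and 0.84. Hgf, the growth factor that urokinase can activate, was at 0 and 0.03 TPM.

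Relatives of Lrp1 and its chaperone were detected for 6 of 10 genes, with 5 higher values, none by 2-fold, and a median of 0.34. The Wnt co-receptors Lrp6 and Lrp5 had log2 ratios of 0.88 and 0.74, Lrp8 had 0.39 and Lrp10 had 0.29. Vldlr and Lrp2, which can also take up serpin and protease complexes, were listed at 0 in both libraries. The list of membrane serine proteases and Kunitz inhibitors also holds secreted proteases, Htra1 and Prss23 among them. It had 5 of 10 genes detected, none 2-fold different, with a median of 0.02. Spint1, an inhibitor of HGF activator and matriptase, had 11.4 TPM without and 22.5 TPM with macrophages (log2 ratio 0.92). Prss8, Htra1 and Prss23 had log2 ratios of 0.54, -0.42 and -0.11. Genes with the uPAR-type domain were detected for 3 of 11, with Ly6c1 at 4.53 TPM and 8.78 TPM and log2 ratios of 0.36 for Ly6a and 0.30 for Ly6e.

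Few other serpins were detected, and most genes of the whole table were not detected either (11258 of 51912 were). None of 17 other clade B serpins was detected, and 12 of them were listed at 0 in both libraries. Of 10 other serpins, most of them secreted, 2 were detected. Serpinf1, which encodes the secreted factor PEDF, had 46.7 TPM without and 26.4 TPM with macrophages (log2 ratio -0.80), and Serpinh1, a collagen chaperone of the endoplasmic reticulum, had 326 TPM and 265 TPM (log2 ratio -0.30).

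Transcription factors of the AP-1, ETS and NF-kB families were detected for 15 of 15 genes, with 8 higher and 7 lower values and none 2-fold different. Their median was 0.14. Jun had 28.8 TPM without and 54.7 TPM with macrophages (log2 ratio 0.90), and Etv5 had 12.7 TPM and 21.9 TPM (log2 ratio 0.74). Ets2 had 9.97 TPM and 5.29 TPM (log2 ratio -0.80), and Fosb had 0.75 TPM and 1.73 TPM (log2 ratio 0.64). Fosl1, the most abundant FOS family gene of the list, had 195 TPM in both libraries. It was named after its value was seen.

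Genes beside the members did not differ by 2-fold. The nearest detected gene on each side of each member gave 16 genes, with log2 ratios from -0.53 to 0.76. Among all detected genes 4.95% were at least 2-fold higher and 2.14% at least 2-fold lower, so none among 16 is near that share. Plau lies between Camk2g, 42.6 kb away, with 23.3 TPM without and 28.7 TPM with macrophages, and Vcl (vinculin), 86.0 kb away, with 42.9 TPM and 73.2 TPM. The log2 ratio of Vcl, 0.76, was the highest of the 16, and that of Camk2g was 0.29. Smg9, which lies 39.7 kb before Plaur, had the lowest, and Cadm4 on the other side had 0.44. The values of Serpinb6a carry a further uncertainty, because its span overlaps 3 detected genes of the opposite strand (Nqo2, Ripk1 and 1110046J04Rik). The labels do not state whether the libraries kept strand. Nqo2 and Ripk1 had 10.5 TPM and 10.03 TPM in the control, against 230.4 TPM of Serpinb6a. Its close paralogs Serpinb6c, Serpinb6d and Serpinb6e were listed at 0 in both libraries and Serpinb6b had 0.85 TPM and 0.99 TPM. Serpinb2 overlaps Serpinb10 on the same strand, which was listed at 0 in both.

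**Figure D5:**
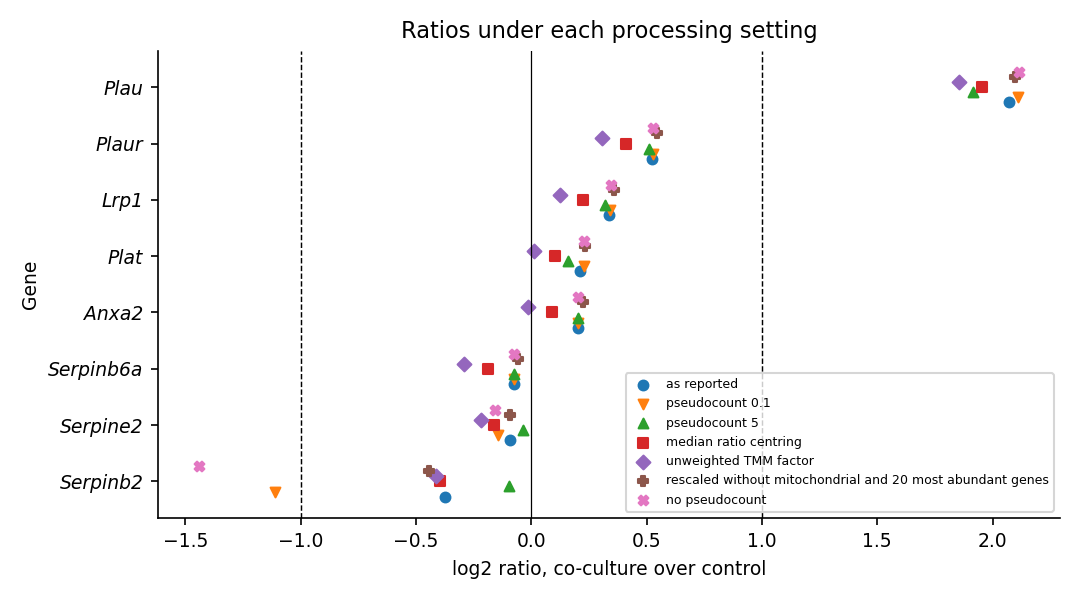
Log2 ratio (horizontal) of the 8 genes under each processing setting (marker shapes in the key), with dashed lines at 2-fold. Plau stays between 1.85 and 2.11 in every setting, while Serpinb2 ranges from -1.44 to -0.10.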

How the data were processed

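RNA sequencing of 2 libraries, 1 per group, was used, and groups were taken from the treatment labels. The co-culture library is titled as 4T2 cells, but its treatment label and column say 4T1, which was followed. The authors deposited TPM values per gene, rounded to 2 decimals. HISAT2 2.1.0, RSEM 1.2.31 and GRCm38.p5 are named, per the submitters' processing notes, without roles. The annotation release, strandedness and any filter are not stated there. TPM keeps no depth, so the precision from counting is unknown and no intervals or floors were computed. RSEM divides reads shared by similar genes, so values of paralogs are uncertain.

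Of 52796 rows, 884 with MSTRG identifiers were left out. GENCODE M21 gave symbols for 51633 of 51912 Ensembl rows, and 1-based GRCm38 positions. Log2 ratios used a pseudocount of 1, which understates changes of low genes. Detection needed a mean of at least 1 TPM. The members and lists were chosen with earlier results of these data known. Genes named were the members, up to 4 detected genes of largest absolute log2 ratio per pathway list, the leading and defining markers, the nearest detected neighbours, and the 3 protein-coding genes closest to Plau. Others named as absent partners or for comparison were chosen after their values were seen. Protein sequences were not used here, and some genes of the lists are not reported here.

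Alternatives were pseudocounts of 0.1 and 5, no filter or a mean of at least 10 TPM, a log2 threshold of 2, the mean for the median, protein-coding genes only, other gene sums, a shorter promoter window, and 3 scalings: the median ratio over genes averaging at least 10 TPM, an unweighted TMM factor (trims of 30% and 5%), and rescaling without mitochondrial and the 20 most abundant genes. Scripts ran in Python 3.11.15 with pandas 2.3.3 and numpy 2.4.6. The 2-fold rule was tested on simulated data.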

Additional observations from a re-analysis of the deposited data

How the results depend on the processing

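Of 48 recomputed member log2 ratios 45 kept their sign and side of 2-fold, and Plau ranged from 1.85 to 2.11. The exceptions were Serpinb2 at -1.11 with a pseudocount of 0.1 and -1.44 with no pseudocount (added after the data were seen), and Anxa2 at -0.0144 with the TMM factor. The shift between libraries was 0.12 on the log2 scale with the median ratio and 0.22 with the TMM factor. Plau was the 1 detected member 2-fold higher and none was 2-fold lower in every setting tried. Of genes past 2-fold 69.8% were higher as reported and 45.2% with the TMM factor.

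Over all genes 557 were 2-fold higher and 241 lower. The higher count was 886 with a pseudocount of 0.1, 199 with a pseudocount of 5, 313 with the TMM factor, 244 at a mean of at least 10 TPM, 75 at a log2 threshold of 2 and 895 with no pseudocount. The lower count was 129 with a pseudocount of 5, 379 with the TMM factor, 120 at a mean of at least 10 TPM, 66 at a log2 threshold of 2 and 155 among protein-coding genes.

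With a pseudocount of 0.1 there was 1 gene 2-fold higher among relatives of Lrp1 and 1 among the AP-1, ETS and NF-kB factors. Of the plasmin and urokinase substrates 1 was 2-fold higher with a pseudocount of 5, with the median ratio, with the TMM factor and at a mean of at least 10 TPM, and 0 at a log2 threshold of 2. Of the uPAR partners 0 passed a log2 threshold of 2. Cd68 made the macrophage list 1 gene lower, which became 0 with a pseudocount of 5 and at a log2 threshold of 2. Krt19 made the epithelial list 1 gene higher, which became 0 with a pseudocount of 5, at a mean of at least 10 TPM and at a log2 threshold of 2. With the TMM factor 1 of the other serpins was 2-fold lower. The serpin to activator ratio was 0.0601 in the control and 0.0134 in co-culture without Serpinb6a. The cause of these changes was not tested. Medians of lists near 0 changed sign in some settings, such as that of the serine protease and Kunitz inhibitor list, at -0.09 with the median ratio.

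No paired analysis was possible because each group has 1 library. Without replicates or depth, the error of every value is unknown.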

Other observations

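Across the whole serpin superfamily 61 protein-coding genes were in the table, 38 of them listed at 0 in both libraries. The share of all genes listed at 0 was not computed. The detected genes Serpinh1, Serpinb6a, Serpinf1 and Serpine2 had lower values in co-culture, with log2 ratios of -0.30, -0.07, -0.80 and -0.09. The clade B genes lie in a cluster of 12 on chromosome 1, which holds Serpinb2 and had no detected gene, and in a cluster of 16 on chromosome 13, where Serpinb6a was the 1 detected gene. In the chromosome 13 cluster the highest value of an undetected gene was 0.99 TPM, against 230 TPM for Serpinb6a in the control.

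The 3 protein-coding genes closest to Plau in log2(TPM + 1) over the 2 libraries were Ece1 (endothelin-converting enzyme 1), Mrpl18 (a mitochondrial ribosomal protein) and C3 (complement component 3). Ece1 had 28.5 TPM without and 125 TPM with macrophages, at a distance of 0.28. Mrpl18 had 33.2 TPM and 89.1 TPM at a distance of 0.48, and C3 had 27.3 TPM and 74.4 TPM at a distance of 0.55. With 2 libraries such a likeness describes a level and a ratio only.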
